A study of Caenorhabditis elegans with 10 samples.

Results

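Of the 10308 autosomal peaks of accessible chromatin called in larval stage 3 (L3), 1330 had a counterpart in the young adult peak list and none in the early embryo list. These 1330 regions are 12.9% of the autosomal L3 peaks, and 55893 peaks were listed over the 3 stages. They were chosen by presence in the deposited lists: a counterpart was any peak whose overlap covered at least 0.5 of either peak, and chromosome X and the mitochondrial genome were left out. The choice therefore used the L3, young adult and early embryo lists, and all values that follow describe those same lists. Because each list was made from pooled replicates, no spread between replicates exists for any value, and no test was run. Intervals in parentheses are exact (Clopper-Pearson) 95% intervals that cover counting error only.

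The study profiled whole wild-type N2 worms by ATAC-seq, in which a transposase cuts and tags DNA that is not covered by nucleosomes or other proteins. Worms were grown on plates at 20°C, and 3 replicates were collected for each of 3 stages: early embryos released by bleaching egg-laying adults, L3 larvae at 36 h past the egg lay, and young adults at 57 h. A further library was made from genomic DNA as input, and the 10 libraries carried no transgene, mutation or drug treatment. All tissues of the animals were processed together, so a region open in fewer cells and one less open in each cell cannot be told apart, and no cell type could be checked in the lists. Early embryo libraries were sequenced most and L3 libraries least, so the list in which the 1330 regions were missing was also the deepest one.

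Accessible sites in worm chromatin mark promoters and enhancers, the DNA elements through which transcription factors switch genes on. Early embryonic cells still divide quickly and are only beginning to take on their fates, whereas L3 larvae and young adults carry differentiated muscle, nerve, gut and skin beside a growing germ line. Sites that become open after the early embryo and stay open are for this reason of interest as candidate elements of larval and adult tissues. The autosomes of this species have gene-dense centres and more repetitive arms.

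The label of these regions, opened after the embryo and kept, rests on called peaks and not on a measured gain of signal. No stage between the early embryo and L3 was sampled, so when a region opened, in later embryos or in larvae, is not known. The fold enrichment is the authors' ratio of signal at the summit of a peak to the local background in the same pooled library, and it is compared here only within a list. With the early embryo and young adult lists shortened to the 13040 entries of the L3 list, keeping those of highest −log10 q, 2593 regions met the rule in place of 1330, and 1208 of the 1330 were among them. With the early embryo list alone shortened in this way the number was 2882, and with the young adult list alone shortened it was 1208.

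The share of L3 peaks found again in the young adult was lower among peaks missing from the early embryo than among peaks present there. Of 2404 autosomal L3 peaks without an early embryo counterpart, 55.3% (53.3% to 57.3%) had a young adult counterpart, against 78.6% (77.7% to 79.5%) of the 7904 with one. The shares differed in the same direction within each of 5 equal groups of autosomal L3 peaks by fold. In the group of highest fold, 94.2% (89.9% to 97.1%) of 191 peaks without and 98.2% (97.5% to 98.8%) of 1870 peaks with an early embryo counterpart had a young adult counterpart. In the third group the shares were 54.7% (50.7% to 58.7%) and 76.7% (74.4% to 78.9%). In the group of lowest fold they were 36.0% (31.7% to 40.5%) and 57.6% (55.1% to 60.0%). Seen from the young adult, 1340 of 12347 autosomal peaks (10.9%) had an L3 and no early embryo counterpart. On chromosome X, the same rule took 329 of 2730 L3 peaks (12.1%).

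The 1330 regions were of intermediate strength in L3. Their fold enrichment had a median of 3.27, with quartiles of 2.57 and 4.21 and a range from 1.57 to 10.4. For comparison, the median was 3.55 in the 6212 autosomal L3 peaks with counterparts in both other stages, 2.54 in the 1074 peaks of L3 alone and 2.37 in the 1692 peaks shared with the early embryo only. By rank on fold among all 13040 L3 peaks, where 1 is the strongest, the median of the 1330 was 5883 and the range 341 to 13020. The −log10 q of the authors' peak caller ranged from 5.18 to 489, with a median of 47.2.

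They were scarce among the strongest L3 peaks. None of the 100 autosomal L3 peaks of highest fold was one of them, which allows a share of up to 3.62%, and 9 were among the top 500 (1.8%) and 45 among the top 1000 (4.5%). With the autosomal L3 peaks divided into 20 equal groups by fold, the share was 1.75% (0.802% to 3.29%) in the first group and 7.96% in the second. It reached 20.2% (16.8% to 23.9%) in the sixth group and 20.5% (17.1% to 24.3%) in the eighth. It then came down to 6.99% (4.94% to 9.55%) in group 17, and was 10.7% (8.15% to 13.7%) in group 19 and 8.91% in group 20. In the young adult, the share of regions with an L3 and no early embryo counterpart had a similar form, with 8.14% in the first of 5 groups by fold, 13.9% in the second and 10.9% in the fourth.

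**Figure D1:**
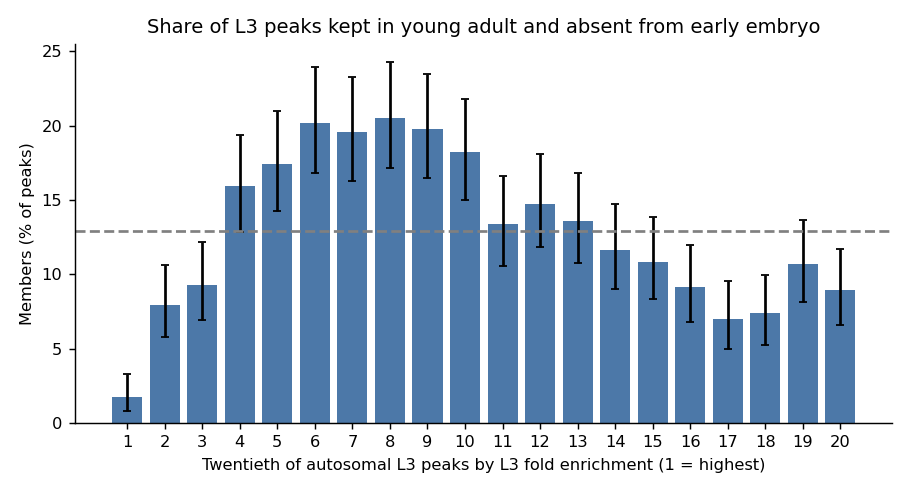
Share of autosomal L3 peaks that had a young adult and no early embryo counterpart (y axis, %), in 20 equal groups of L3 peaks ordered by fold enrichment from the highest (x axis, group 1). Bars give the share, error bars the exact 95% interval for counting error, and the dashed line the share over all autosomal L3 peaks, 12.9%. The share was 1.75% in group 1 and 20.5% in group 8.

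In the young adult the counterparts kept a similar standing. The counterpart of largest overlap had a median fold of 2.87, with quartiles of 2.34 and 3.81 and a range from 1.503 to 11.5. Its median rank was 7003 of 15159, or 46.2% of the way down the list, against 45.1% in L3. Peaks present in all stages stood higher, with a median rank of 5120 in L3 and 4935.5 in the young adult. These are 39.3% and 32.6% of the way down the lists, so at the median they stood relatively higher in the young adult. The paired difference in relative rank, young adult minus L3, had a median of -3.44 for them and 0.465 for the 1330 regions, in percent of list length. Of the 1330 regions, 671 had the better relative rank in L3 and 659 in the young adult, and 568 (42.7%) kept their relative rank to within 10 percent of list length. A total of 108 were in the strongest of 5 equal parts of both lists, and 72 in the weakest of both. Spearman's rho between L3 and young adult fold was 0.66 over the 1330 regions and 0.80 over the peaks of all stages, given as a description, since the points share their libraries.

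A minority of the regions shifted far in rank. A shift of over 50 percent of list length was seen for 36 regions that stood higher in the young adult and 11 that stood higher in L3. Of the 36, 10 had a young adult counterpart that itself had an early embryo counterpart, and none of the 11 did. Over all 1330 regions this held for 40 (3.01%). At shifts of over 25 percent, the numbers were 147 and 138. Without the regions whose young adult counterpart had an early embryo counterpart they were 129 and 138. Shifts toward the young adult were not particular to the regions. For the difference in relative rank, young adult minus L3, the lowest 10% lay below -27.1 in the regions and below -32.6 in peaks of all stages. The highest 10% lay above 25.2 and 14.4.

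**Figure D2:**
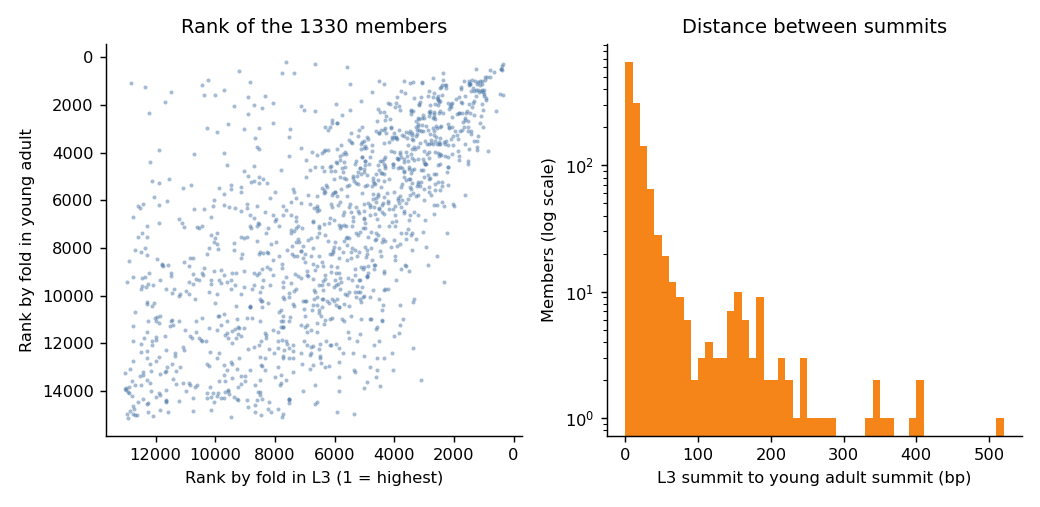
Left, rank by fold enrichment in L3 (x axis, of 13040) and of the young adult counterpart (y axis, of 15159) for each of the 1330 regions (points), with the strongest at the top right. Right, number of regions (log scale) by distance in bp between the L3 and young adult summits in bins of 10 bp. Of the regions, 1210 had summits within 50 bp, and a smaller group lies between 140 and 190 bp.

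The median widths of the regions were close at both stages, while single regions often differed. The median width was 291 bp in L3, with quartiles of 240.25 and 353 bp and a range from 139 to 933 bp. In the young adult it was 287 bp, with quartiles of 237.25 and 360.0 bp and a range from 94 to 971 bp. The L3 peak was the wider one in 739 regions (55.6%), the young adult peak in 558 (42.0%), and 33 were equal. Region by region, the width in the young adult minus that in L3 had a median of -6 bp. Its quartiles were -44 and 33.75 bp and its range -479 to 669 bp. Spearman's rho between the widths was 0.48, given as a description. Width rose with strength in L3, so it was also read within the 5 groups by fold. In the strongest group the median was 363 bp for the 1330 regions, 398 bp for peaks of all stages and 284 bp for peaks of L3 alone. In the weakest group the medians were 239, 245 and 215 bp. In both groups the median of the regions lay between those of the other classes and nearer to that of the peaks of all stages. In total they covered 0.409 Mb, 12.8% of the 3.20 Mb in autosomal L3 peaks.

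Summits of the regions were almost at the same place in both stages. The median distance between the L3 and the young adult summit was 10 bp, with quartiles of 4 and 21 bp and a largest value of 511 bp. It was within 50 bp in 1210 regions (91.0%, 89.3% to 92.5%) and at the same base in 35. The peaks of all stages had a median of 8 bp, and 91.3% (90.6% to 92.0%) lay within 50 bp. Both sets were admitted by overlap between the L3 and young adult peaks, which limits this distance in advance. In 1232 regions (92.6%) the overlap covered at least 0.5 of both peaks and not only of either one.

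The distances over 50 bp did not fall off evenly. In ranges set after the distances were seen, 46 regions lay over 50 and up to 100 bp, 14 over 100 and up to 140 bp, 35 over 140 and up to 190 bp, and 25 beyond 190 bp. In the range from 140 to 190 bp, 23 of the 35 regions directly adjoined another L3 peak, as did 23 of the 25 beyond it, against 242 of the 1210 within 50 bp. The authors split broad peaks between neighbouring summits, so an adjoining peak is a part of a longer accessible interval. Among peaks of all stages the numbers in the same ranges were 237, 75, 119 and 110 of 6212, with a second group of distances in the same range.

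Splitting of peaks touched a minority of the regions. A total of 1026 (77.1%) stood in an accessible interval of their own, and 304 (22.9%, 20.6% to 25.2%) adjoined another L3 peak, against 27.4% of peaks of all stages and 13.7% of peaks of L3 alone. In 175 cases the adjoined interval also held an L3 peak with an early embryo counterpart, so another part of the same accessible interval was shared with the early embryo. In the young adult, 1298 regions had 1 counterpart and 32 had 2, and 29 young adult peaks each served 2 regions.

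In 40 regions (3.01%, 2.16% to 4.07%) a young adult counterpart itself had an early embryo counterpart. In these the counterpart was 537 bp wide at the median and the L3 peak 255 bp, and 34 of them adjoined another L3 peak. Their summits were 178.5 bp apart at the median, against 9 bp in the other 1290 regions, and 25 of the 40 had summits over 150 bp apart. The first example lay on chromosome II from 7183663 to 7183924 (all coordinates are of ce10). The L3 peak had a fold of 2.79 and rank 7622, and its young adult counterpart, 697 bp wide, had 11.5 and rank 182, the highest young adult fold of all. An early embryo peak with a fold of 3.86 began 4 bp beyond the L3 peak, from 7183929 to 7184239, and the summits of L3 and young adult were 241 bp apart. On chromosome II from 11464171 to 11464419 the values were of the same kind. The L3 fold was 3.04 and the young adult fold 10.7, with an early embryo peak of fold 6.90 and rank 285 of 27694 that began 16 bp away.

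The 5 regions of highest fold in L3 were well separated from early embryo peaks. The first lay on chromosome IV from 14272415 to 14273060, with a fold of 10.4 in L3 (rank 341) and 5.88 in the young adult (rank 1596). Next came chromosome II from 12878618 to 12879060, with 10.3 in L3 (rank 345) and 10.6 in the young adult (rank 270). The others were chromosome III from 1249214 to 1249556 (10.2 and 8.75), chromosome III from 11689282 to 11689767 (10.1 and 9.90) and chromosome V from 8000839 to 8001586 (9.97 and 9.04). All 5 stood 5.75 to 9.93 kb from the nearest early embryo peak, and their summits differed by 2 to 23 bp between the stages. The remaining region among the 5 strongest of the young adult lay on chromosome IV from 9778100 to 9778314. It stood at rank 5570 in L3 (fold 3.37) and at rank 395 in the young adult (9.61), with summits 3 bp apart, and it stood 1.62 kb from an early embryo peak.

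The distance to the nearest early embryo peak covered a wide range. Between peak edges the median was 1150.5 bp, with quartiles of 250.25 and 2780.75 bp, and the 10% farthest lay beyond 5723 bp. The peaks of L3 alone had a median of 1091.5 bp, and the 2224 autosomal peaks of the young adult alone had 1013.5 bp. A distance of over 1 kb was found for 709 regions (53.3%, 50.6% to 56.0%) and for 52.6% (49.6% to 55.6%) of the peaks of L3 alone. At over 5 kb the shares were 11.7% (10.0% to 13.6%) and 14.3% (12.3% to 16.6%). The intervals of the shares overlapped at both limits. The nearest early embryo peak itself was close in strength to the rest of its list, with a median fold of 2.12 and a median rank of 13320, against 13958 for all autosomal early embryo peaks.

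In L3, regions far from early embryo peaks had higher folds than those close to one. The 74 regions that overlapped an early embryo peak by less than the limit had a median L3 fold of 2.75, and the 284 with a gap of up to 300 bp had 3.00. At over 300 bp and up to 1 kb (260 regions) the median was 3.16, at 1 to 5 kb (553 regions) 3.40, at 5 to 10 kb (116 regions) 3.99 and beyond 10 kb (40 regions) 4.20. The strongest of 5 equal parts of the L3 list held 9.46% of the 74 overlapping regions and 7.75% of those with a gap of up to 300 bp. It held 7.69% of those up to 1 kb, 13.7% at 1 to 5 kb, 27.6% at 5 to 10 kb and 30% farther away. Young adult folds did not follow this order throughout. The 74 overlapping regions had a median of 3.05, above the 2.64 at gaps of up to 300 bp, the 2.86 up to 1 kb and the 2.87 at 1 to 5 kb, and the medians were 3.18 at 5 to 10 kb and 3.68 beyond 10 kb. The L3 width changed little, with medians of 268.5 bp for the overlapping regions, 279.5 bp at gaps of up to 300 bp, 305 bp at 5 to 10 kb and 295 bp beyond 10 kb. Peaks of L3 alone rose with distance too, from a median fold of 2.37 at gaps of up to 300 bp to 2.88 beyond 10 kb.

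**Figure D3:**
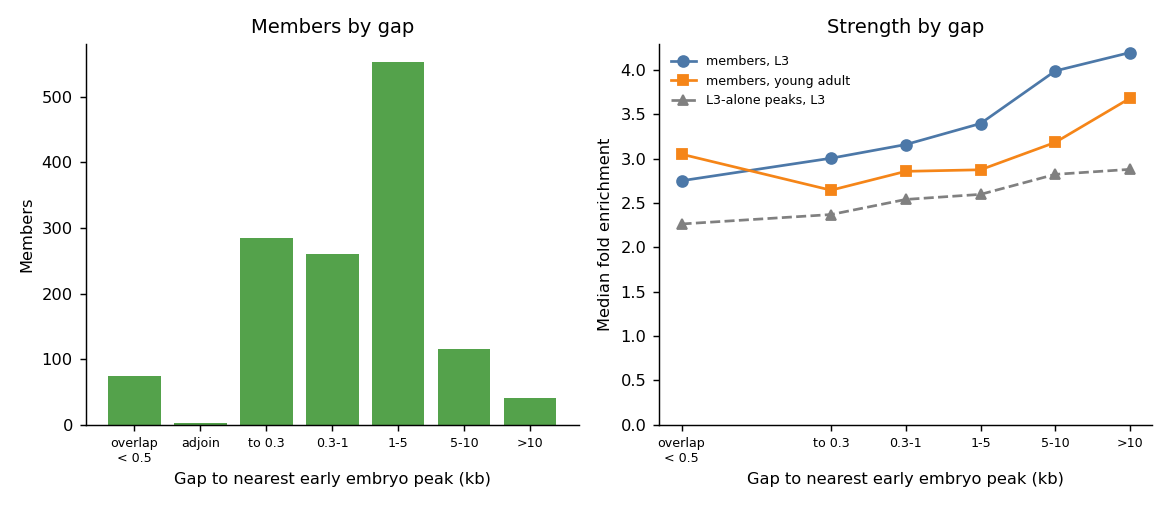
Left, number of the 1330 regions by gap in kb between the L3 peak and the nearest early embryo peak (7 classes, from overlaps below the limit to gaps over 10 kb). Right, median fold enrichment by the same gap for the regions in L3 (circles) and the young adult (squares) and for peaks of L3 alone (triangles), without the class of 3 adjoining regions. The L3 median of the regions rose from 3.00 at gaps of up to 300 bp to 4.20 beyond 10 kb.

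The 5 regions farthest from any early embryo peak were of mixed strength. On chromosome IV, from 7710857 to 7711148, a region stood 37.7 kb from the nearest early embryo peak, with a fold of 3.11 in L3 (rank 6414) and 2.45 in the young adult (rank 9546) and its summit at the same base in both. A neighbour further along, from 7727202 to 7727539, stood 25.7 kb away, with folds of 1.86 and 3.05. The strongest of the 5, on chromosome IV from 13826169 to 13826718, stood 33.8 kb away and had a fold of 7.70 in L3 (rank 1002) and 6.27 in the young adult (rank 1375). The others were chromosome V from 18981058 to 18981245, at 32.7 kb (3.16 and 4.36), and chromosome II from 1991479 to 1991711, at 21.5 kb (3.48 and 3.31).

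At the other end, 165 regions (12.4%, 10.7% to 14.3%) had an early embryo summit within 300 bp of their own, the distance at which the study's later steps merge summits. Close to the overlap limit, 7 regions had 0.4 to 0.5 of a peak covered by an early embryo peak, and 31 L3 peaks with a young adult counterpart lay at 0.5 to 0.6. The regions just inside were on chromosome III from 6178594 to 6178779 (49.5% covered, L3 fold 2.23), chromosome V from 5780728 to 5781059 (47.3%, 6.67) and chromosome II from 6828506 to 6828708 (46.3%, 1.88). Just outside were chromosome V from 14595468 to 14595769 (50.3%, 2.25), chromosome II from 9674090 to 9674303 (50.5%, 2.18) and chromosome I from 14615871 to 14616083 (50.7%, 2.97). On the young adult side, the nearest inside were covered by 50.9% on chromosome II from 3245600 to 3245886, 51.2% on chromosome I from 14864836 to 14865005 and 51.4% on chromosome V from 16593257 to 16593610. The nearest outside were covered by 44.2% on chromosome I from 527296 to 527528, 43.1% on chromosome III from 8498415 to 8498789 and 40.1% on chromosome V from 7843473 to 7843749.

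Along the chromosomes the regions were spread widely. The middle of 3 equal parts of the autosomes held 508 of the 1330 regions (38.2%, 35.6% to 40.9%), against 35.2% (34.3% to 36.1%) of all autosomal L3 peaks, 33.7% (32.5% to 34.9%) of peaks of all stages, 40.5% (37.5% to 43.5%) of peaks of L3 alone and 35.0% of peaks shared with the early embryo only. With lists of equal length the share of the regions was 36.0% (34.1% to 37.9%), an interval that holds the share of all autosomal L3 peaks. As a share of autosomal L3 peaks they were 12.3% in the first part, 14.0% in the middle and 12.3% in the last, with intervals of 12.9% to 15.2% for the middle and 11.2% to 13.5% for the last. In density, 18.5 regions per Mb lay in the middle part, 15.5 in the first and 14.4 in the last. Early embryo peaks were less dense in the middle than in the first part, at 258 against 279 per Mb, and were at 262 per Mb in the last.

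Chromosome V was richest in these regions and chromosome I poorest. The share of L3 peaks was 14.8% (13.3% to 16.3%) on V, 13.5% on IV, 12.9% on II, 12.5% on III and 10.6% (9.29% to 12.04%) on I. The intervals of V and I, the extremes among the autosomes, did not overlap. These intervals treat peaks as independent, which adjoining peaks are not, and the difference was not tested. By part of a chromosome, the share ran from 9.10% in the last part of I to 15.9% in the middle of V. Chromosome IV went the other way, with 13.2% in its middle and 15.6% in its last part. The median gap to the early embryo was longest on V, at 1373 bp, and shortest on III, at 974.5 bp.

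**Figure D4:**
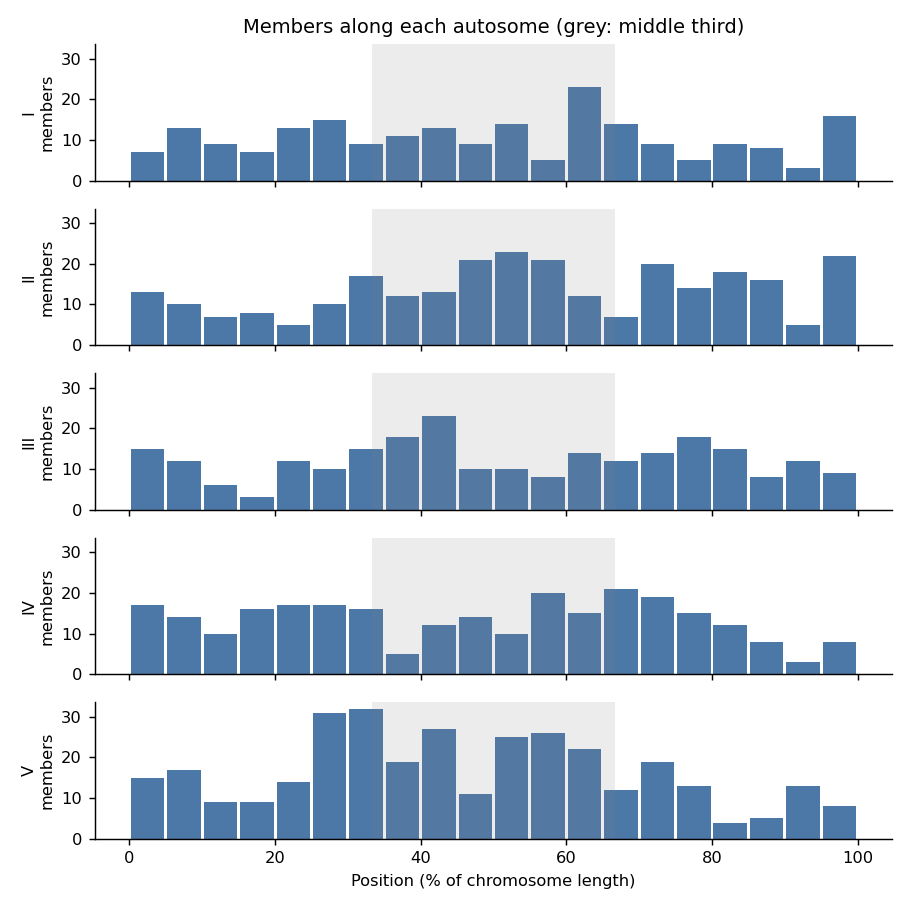
Number of the 1330 regions (y axis) in 20 equal parts of each autosome (x axis, position in % of the largest peak end in any list), with 1 panel per chromosome and the middle of 3 equal parts shaded. The tallest bars are the sixth and seventh parts of chromosome V, with 31 and 32 regions.

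On a finer scale, 164 of 167 blocks of 500 kb that held an L3 peak had at least 1 region, and the median block had 7. The highest number was 19, reached in 3 blocks. They were chromosome III from 5500001 to 6000000 (of 113 L3 peaks), chromosome V from 5500001 to 6000000 (of 75, 25.3%) and the block that follows it on chromosome V, from 6000001 to 6500000 (of 95). Among the 162 blocks with at least 20 L3 peaks, the share ranged from 0 to 25.7%, the highest being chromosome V from 2000001 to 2500000 with 9 of 35 peaks.

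The regions tended to lie beside one another. The nearest other L3 peak was also one of the 1330 for 326 regions (24.5%, 22.2% to 26.9%), against 10.9% (10.1% to 11.7%) for peaks of all stages, 15.9% (13.8% to 18.2%) for peaks of L3 alone and 9.34% for peaks shared with the early embryo only. Leaving out cases where the nearest peak adjoined, the shares were 19.8% (17.4% to 22.3%), 11.7%, 15.5% (13.2% to 18.0%) and 10.3%, so the order of the classes was kept. Peaks of L3 alone, which also lacked an early embryo counterpart, stood closest to the regions. Between neighbouring early embryo summits, 1101 stretches held at least 1 region, of which 911 held 1, 157 held 2, 27 held 3 and 6 held 4. In all, 419 regions (31.5%) shared a stretch with another. Stretches were not counted for the other classes of peak, so this share has no comparison.

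The 6 stretches with 4 regions were 11.1 to 24.4 kb long. Lengths and coordinates run between the edges of the flanking early embryo peaks. L3 peaks were counted by summit, between the summits of those early embryo peaks. On chromosome III from 5368479 to 5380021, 4 of the 5 L3 peaks were such regions, and the other overlapped the early embryo peak at the right. The 4 regions had L3 folds from 3.65 to 4.81, young adult folds from 2.48 to 4.08 and summits at most 11 bp apart. On chromosome V from 2228104 to 2247255 all 4 L3 peaks were such regions, with L3 folds of 6.42, 2.67, 4.74 and 5.16 and young adult folds of 4.90, 2.55, 2.81 and 4.49 in order along the chromosome. On chromosome IV from 10331425 to 10344710 the 4 adjoined each other, from 10341756 to 10342759, as parts of 1 accessible interval, with L3 folds rising from 2.46 through 3.99 and 4.62 to 5.24. In the young adult the same interval was cut into 3 counterparts with folds of 2.18, 4.72 and 5.62. The stretch on chromosome II from 8809969 to 8821088 had weaker regions, with L3 folds from 2.04 to 3.85. The longest, on chromosome I from 3308170 to 3332605, had L3 folds from 3.29 to 5.13.

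**Figure D5:**
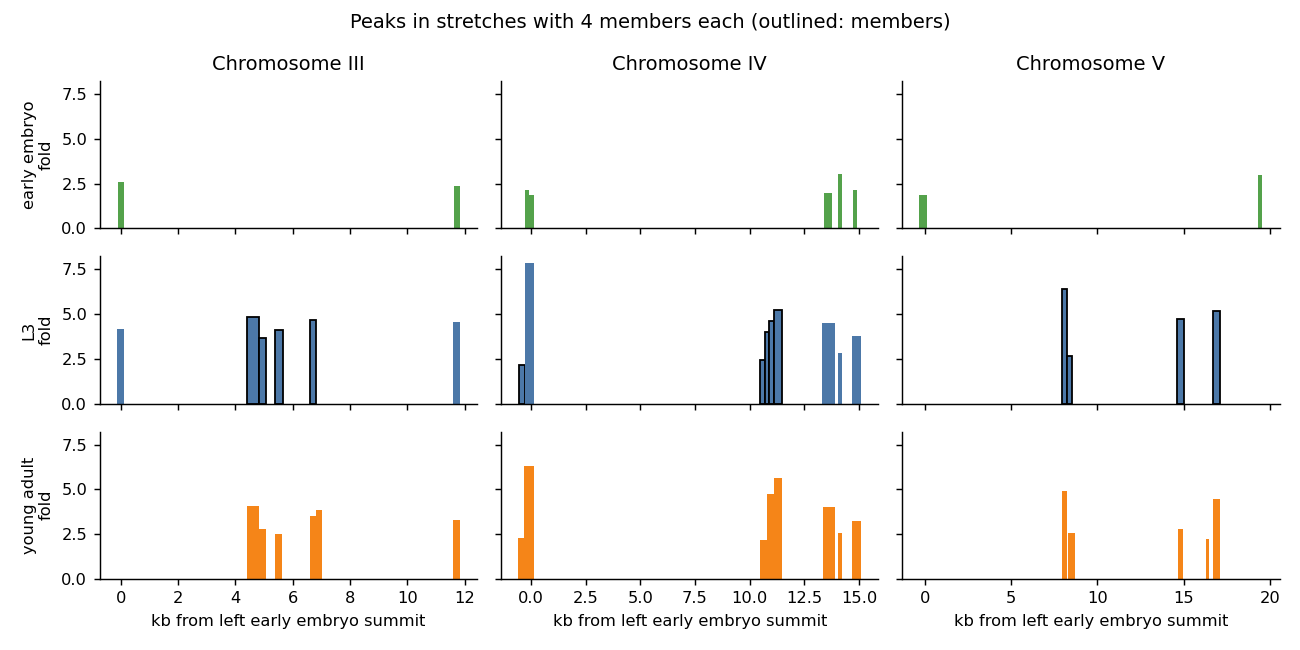
Peaks of the early embryo (top), L3 (middle) and young adult (bottom) in 3 stretches between neighbouring early embryo summits, by distance in kb from the left early embryo summit (x axis) and fold enrichment (y axis, a ratio within each list). Each bar spans a peak, and L3 bars with a black outline are the regions described here. Each panel shows 4 of them inside the stretch, and on chromosome IV a further one lies left of it.

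The remaining stretch was at kin-1 on chromosome I, the gene for the catalytic subunit of protein kinase A, which stands between ptr-23 and ZK909.3 in the WBcel235 gene table (another build, used for gene order only). It ran from 14913814 to 14930072, and its 5 L3 peaks, counted by summit as above, included 4 regions. The other L3 peak overlapped the early embryo peak at the right and lay outside these coordinates. In order along the chromosome the L3 ranks of the 4 regions were 5723, 2876, 2535 and 8387. The ranks of their young adult counterparts were 6629, 1632, 1632 and 8225. The regions of ranks 2876 and 2535 share a counterpart, 524 bp wide, with its summit 159 bp from the summit of the former and 2 bp from that of the latter. Another region in the plotted window of the study, from 14939732 to 14940056, stood 60 bp from a weak early embryo peak (fold 1.86, rank 19541 of 27694) and had its summit 1 bp from that of the young adult. In all, 5 of the 14 L3 peaks in that window were such regions, against 12.9% of all autosomal L3 peaks. The window of cav-1 on chromosome IV, which codes for a caveolin, held 1 L3 peak and none of the regions. From these same data the study chose cav-1 to show a decrease in accessibility and kin-1 to show an increase. The 2 counts are therefore tied to that choice.

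Of the 23 autosomal intervals that the study lists for its tested regions, 10 held an L3 peak and 1 held one of the regions. Over all autosomal L3 peaks the share of the regions was 12.9%, and the study chose its putative enhancers from peaks of these same data. The region in a listed interval lay at C54G6.3 and C54G6.2 on chromosome I from 998886 to 999818. At 933 bp, it was the widest of the 1330. Its rank was 1867 in L3 and 3439 in the young adult (fold 4.13), where the peak was 530 bp wide with its summit 33 bp away. Its nearest early embryo peak lay 1.10 kb off with a fold of 5.03. That peak stood inside another interval listed for the same genes, from 1000922 to 1001216, which had peaks in all stages and none of the regions. The next widest were on chromosome V from 1593690 to 1594555 (866 bp in L3, 387 bp in the young adult, folds 5.31 and 6.53) and chromosome I from 13065522 to 13066299 (778 and 677 bp, folds 4.98 and 4.27).

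Chains of regions across early embryo peaks were counted too, without the same count for other classes of peak. They describe these regions and cannot be read as particular to them. With neighbours at most 5 kb apart joined, 855 regions stood alone and 475 (35.7%) were in chains of at least 2, among them 9 chains of 4. The longest, picked after its values were seen, had 5 regions on chromosome V between 6344874 and 6359082, inside one of the blocks with 19 regions. Its members were weak, with L3 folds from 1.80 to 2.43 and young adult folds from 1.78 to 3.24, and each lay within 2.04 kb of an early embryo peak. Its summits differed by 1 to 32 bp between L3 and young adult.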

How the data were processed

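ATAC-seq libraries of 9 stage samples and 1 input were reduced by the authors to 1 peak list per stage. As the study's methods and the submitters' processing notes state, Bowtie2 2.1.0 aligned the reads to ce10, Picard took out duplicates, and peaks were called on the pooled replicates at a q of 0.05, split between summits, and cleared of blacklisted and input regions. The methods also describe calls in single replicates and a preference for peaks that recurred among replicates. The rule used for the stage lists is not given in the sources used here, so a peak missing from a list may have been called in some replicates. Fold enrichment, as deposited, is a ratio to local background. The deposited −log10 q was used to filter. The −log10 p was not used. The deposited score equals 10 times −log10 q with decimals dropped, save for a single early embryo peak (27693 of 27694 match), and was not used.

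The regions and lists were chosen with earlier results of these data known. Lists were joined in Python 3.11.15 (numpy 2.4.6, pandas 2.3.3), with shares from scipy 1.17.1 and figures from matplotlib 3.10.9. Overlap counts differed by 0 peaks from bedtools 2.31.1, and the join was tested on simulated data. Ranks are by fold, ties sharing the lowest. Chromosome lengths are the largest peak end in any list. The read number behind a peak is unknown. Named regions were the 5 strongest in each stage, the 5 farthest from early embryo peaks, the 3 widest, those at both overlap limits, the stretches and blocks with most regions (all ties given), and those in the kin-1 and cav-1 windows and the tested intervals. No ce10 sequence or annotation was used, so no sequence or gene distance is given.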

Additional observations from a re-analysis of the deposited data

How the results depend on the processing

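With overlap required to cover 0.5 of both peaks, 1642 regions met the rule, the median L3 width was 309 bp and the median distance to an early embryo peak 495 bp. With lists of equal length there were 2593 regions at a median of 2055 bp. With the early embryo list alone shortened there were 2882 regions, at a median of 2022 bp and with summits 11 bp apart, and with the young adult list alone shortened 1208 at 1146.5 bp. With adjoining peaks joined (1103 regions) the medians were 305 and 1408 bp. Leaving out regions with an early embryo summit within 300 bp, which like the shortening of single lists was chosen after seeing the data, left 1165 regions with 296 and 1415 bp. In the other alternatives, a −log10 q of at least 2 or 5, an overlap of 1 bp, and a young adult counterpart that also lacked an early embryo one, the number was 1289 to 1334 and the distance 1151 to 1212 bp. Over all alternatives the median summit distance was 9 to 11 bp and the middle share between 36.0% and 38.5%. The cause of these moves was not tested beyond their construction. No paired analysis was possible because each list pools its replicates, and for the same reason no replicate could be left out. L3 was sequenced least, and whether depth affected which peaks were called was not tested.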
